A study of Mus musculus with 12 samples.

Results

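A list of 33 marker genes of neuroblastoma and neurons was followed through macrophages that had or had not entered neuroblastoma spheres. Its members are symbols, and each was read from the probe sets to which the platform annotation gives exactly 1 gene symbol, with the probe set of the highest mean over 12 arrays kept for each gene. Of the 33 members 32 had such a probe set, out of 17097 genes on the array, and Dcx had none. The array carried 61 such probe sets for these 32 genes.

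The arrays form 4 groups of 3. In the groups labelled CD11b+, bone marrow-derived macrophages had been recovered from inside spheres at 24 h or 48 h. The other groups hold bone marrow-derived macrophages of the agar cultures that remained outside the spheres, at the same times. All carry the strain label C57BL/6, and all shared their culture with cells of the neuroblastoma line TT9423, whose spheres were grown overnight on agar before an equal number of macrophages was added. Each replicate was a separate experiment for which cells of several wells were combined. Spheres were broken up with enzymes and the macrophages taken from them on CD11b columns, while the sources used here do not describe the handling of the outside cells. Compartment and handling therefore cannot be told apart. The titles and the time label give 48 h for 6 arrays whose protocol text speaks of a 24 h co-culture. The sources used here do not describe the genotype of TT9423, and no array of that line alone was analysed here.

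Neuroblastoma arises from the sympathoadrenal lineage of the neural crest. Cells of that lineage are built by transcription factors such as Hand2 and Gata3, make noradrenaline through tyrosine hydroxylase and dopamine beta-hydroxylase, store it with chromogranins in dense-core granules, and carry neuronal cytoskeletal and synaptic proteins. Many of the same tumours can also hold cells in a mesenchymal state, in which adrenergic genes are low and matrix and migration genes are high. Several growth cone and adhesion genes of the list are known outside the nervous system as well, so single members differ in how closely they mark the tumour cell.

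Values are log2 expression, made by the authors with RMA, and sets of 3 values below are replicates 1, 2 and 3 in that order. A value was called above background if it exceeded 2.77, the 40th percentile of the whole table. A stricter level was set on each array by genes not thought to be transcribed in macrophages, as the 95th percentile of 79 probe sets of olfactory and vomeronasal receptor genes. This receptor-gene level ran from 2.93 to 3.16. Array medians ran from 3.03 to 3.17. The lowest belonged to in-sphere replicate 3 at 48 h, on which 324 genes exceeded all other arrays by more than 0.5 and 567 fell short of them by as much, the highest counts of any array. All 17 macrophage identity genes exceeded both levels on all 12 arrays, among them Itgam, which encodes CD11b. So did all 10 granulocyte markers, so detection alone does not tell these cell types apart. Differences are in-sphere minus outside from limma over all 12488 tested genes, given with their standard error (n = 3 against 3), and a gene was called where the p adjusted by Benjamini-Hochberg was under 0.05. In bulk RNA, fewer cells of a type and less RNA per cell cannot be told apart.

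Fewer of the marker genes than of all genes stood above background, and about as many did outside the spheres as inside them. On all 3 arrays of a group, 13 of 32 members exceeded 2.77 in spheres at 24 h (40.6%), against 63.9% of all genes, and 13 did outside (40.6%, all genes 63.9%). At 48 h 14 did in spheres (43.8%, all genes 61.2%) and 11 outside (34.4%, all genes 63.7%). Against the receptor-gene level the counts were 8 and 7 of 32 at 24 h (25% and 21.9%, all genes 58% and 56.9%) and 8 and 7 at 48 h (25% and 21.9%, all genes 55.2% and 57.3%). The members behind these last counts were not all the same. At 24 h Sox11, Gap43, Nes and Uchl1 were counted only in spheres, and Mycn, Gata2 and Dbh only outside. At 48 h Mycn, Gap43 and Nes were counted only in spheres, and Gata2 and Dbh only outside. Npy, Ncam1, L1cam and Nrn1 exceeded the receptor-gene level on all 12 arrays, Sox11 on 11, and Mycn, Gata2 and Dbh on 10 each. Gap43 and Nes did so on every in-sphere array, but outside on only 1 of 3 and 0 of 3 arrays at 24 h and on 0 of 3 and 1 of 3 at 48 h. At the other end, 15 members exceeded it on 0 of 12 arrays, and their values ran from 1.77 to 3.14. They were Hand2, Gata3, Isl1, Ddc, Chga, Chgb, Ret, Alk, Stmn2, Tubb3, Nefl, Nefm, Prph, Snap25 and Rtn1. No array here shows these probe sets above that level, so how they respond to RNA of TT9423 was not tested.

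**Figure D1:**
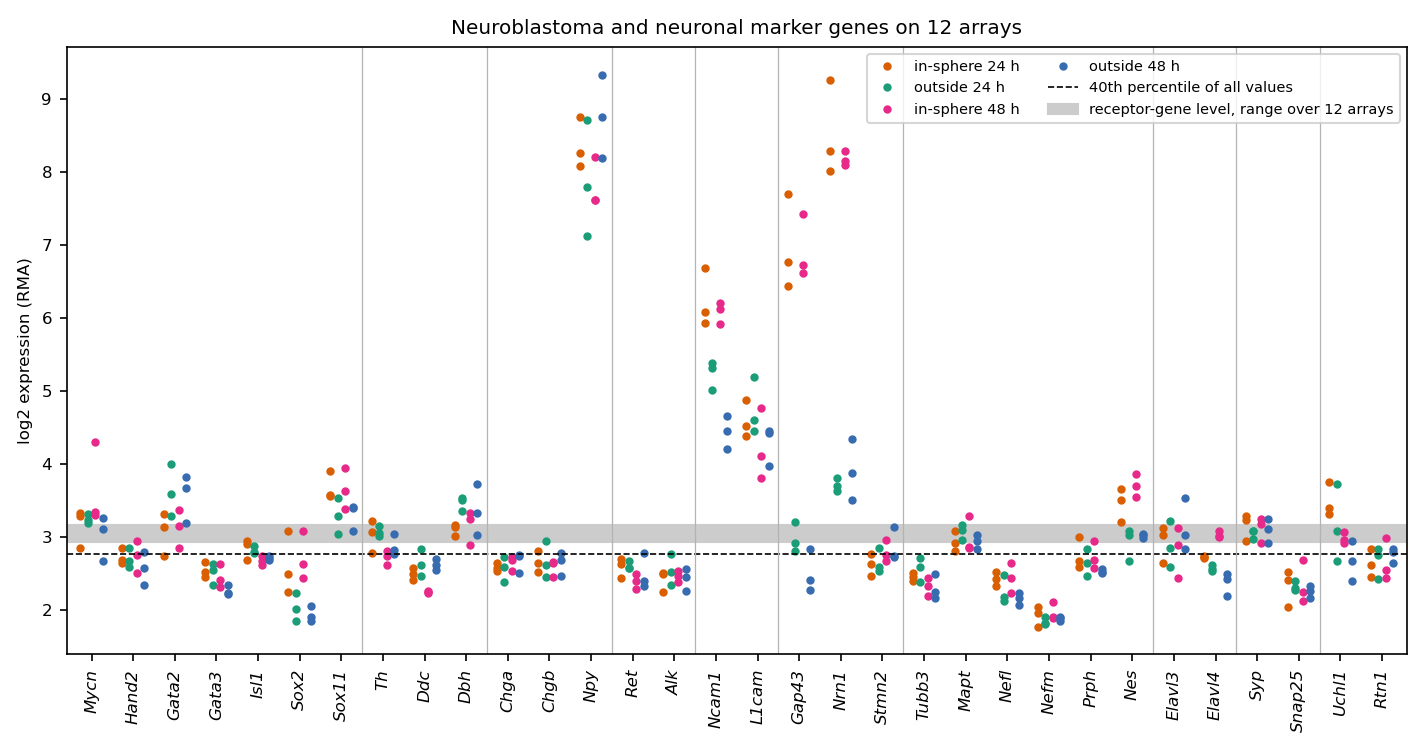
Log2 expression of the 32 marker genes on 12 arrays, 1 point per array, ordered by role with vertical lines between roles; the dashed line is the 40th percentile of all values (2.77) and the grey band the receptor-gene level of the arrays (2.93 to 3.16). Gap43, Nrn1 and Ncam1 separate in-sphere from outside arrays, Npy is high in all 4 groups, and most other members lie in or below the band.

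The growth cone genes Gap43 and Nrn1 were the members with the largest differences between the compartments. Gap43 encodes a membrane-bound protein of growing axon tips. Its values were 7.70, 6.77 and 6.43 in spheres against 2.92, 2.80 and 3.20 outside at 24 h, and 6.72, 6.61 and 7.42 against 2.27, 2.84 and 2.41 at 48 h. The lowest of the 6 in-sphere values was more than 3 log2 units above the highest of the 6 outside values, so the groups did not overlap at either time. The difference was 3.99 ± 0.30 at 24 h (15.9-fold, adjusted p = 4.41e-06) and 4.41 ± 0.30 at 48 h (21.3-fold, adjusted p = 1.38e-06). Outside the spheres Gap43 exceeded 2.77 on all 3 arrays at 24 h but on 1 of 3 at 48 h, so the size of the later difference is only partly measured.

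Nrn1 encodes neuritin, a small secreted or membrane-anchored protein that promotes neurite growth. Its values were 9.26, 8.28 and 8.02 in spheres against 3.80, 3.63 and 3.70 outside at 24 h, and 8.29, 8.09 and 8.15 against 3.51, 3.88 and 4.34 at 48 h. The probe set was above both background levels everywhere, so Nrn1 was detected outside the spheres as well and was far higher in them. The difference was 4.81 ± 0.28 at 24 h (28.0-fold, adjusted p = 1.01e-06) and 4.26 ± 0.28 at 48 h (19.2-fold, adjusted p = 1.13e-06). Stmn2, a microtubule regulator of growing neurites and the third member of this role, was not called. It ran from 2.47 to 3.14 over the 12 arrays, exceeded the receptor-gene level on none of them, and differed by -0.032 ± 0.15 and -0.075 ± 0.15 (adjusted p = 0.906 and 0.730).

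Of the adhesion molecules, Ncam1 rose in spheres and L1cam did not pass the test. Ncam1 encodes the neural cell adhesion molecule, which muscle also makes. Its values were 6.69, 5.93 and 6.08 in spheres against 5.01, 5.38 and 5.31 outside at 24 h, and 6.20, 6.12 and 5.92 against 4.45, 4.66 and 4.20 at 48 h. Groups did not overlap at either time, and the difference was 0.99 ± 0.20 at 24 h (adjusted p = 0.00239) and 1.64 ± 0.20 at 48 h (adjusted p = 5.22e-05). The 3 outside values at 48 h were below those at 24 h, a difference of -0.80 ± 0.20 that did not pass (adjusted p = 0.130, from 0.0265 to 0.379 over the alternatives, the lowest with array weights). A second Ncam1 probe set, matched to the same sequence record, gave 5.55, 5.08 and 4.69 against 4.11, 3.98 and 3.80 at 24 h and 5.18, 5.12 and 5.31 against 2.99, 3.33 and 3.18 at 48 h. In a fit over all probe sets, added after seeing the data, it differed by 1.14 and 2.04 (limma adjusted p = 8.53e-04 and 8.85e-06). Of the 4 other Ncam1 probe sets 1 was called, at 48 h only (0.46, limma adjusted p = 0.0401), and 3 were too dim to be tested. With its probe sets averaged Ncam1 differed by 0.45 and 0.76 (adjusted p = 0.0100 and 2.65e-04).

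L1cam, another adhesion molecule of axons, was detected in all 4 groups. Its values were 4.52, 4.38 and 4.88 in spheres against 5.18, 4.60 and 4.45 outside at 24 h, and 4.77, 4.11 and 3.81 against 4.42, 4.45 and 3.98 at 48 h. The groups overlapped at both times, with differences of -0.15 ± 0.26 and -0.050 ± 0.26 (adjusted p = 0.716 and 0.901).

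**Figure D2:**
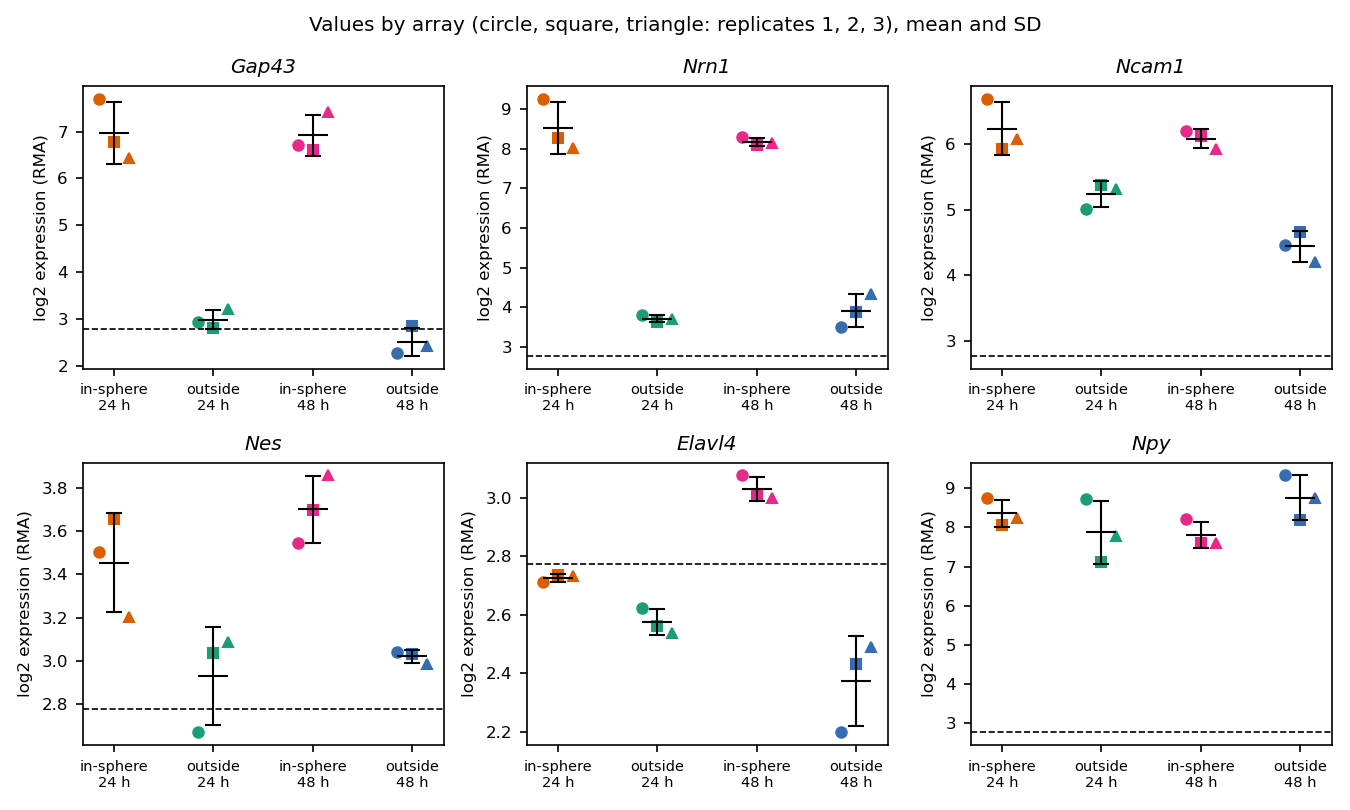
Log2 expression of Gap43, Nrn1, Ncam1, Nes, Elavl4 and Npy by group, with circles, squares and triangles for replicates 1, 2 and 3, and bars for the mean and SD of 3 arrays; each panel has its own axis, and the dashed line is at 2.77. For Gap43 the in-sphere arrays sit between 6.43 and 7.70 and the outside arrays between 2.27 and 3.20, while Elavl4 spans less than 1 log2 unit in all.

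Of the cytoskeletal members with a value, Nes alone was called, and 3 of the 6 exceeded 2.77 on 0 of 12 arrays. Nes encodes nestin, an intermediate filament protein of neural progenitors that is also made by other immature and injured cells. Its values were 3.50, 3.66 and 3.20 in spheres against 2.67, 3.03 and 3.09 outside at 24 h, and 3.54, 3.70 and 3.86 against 3.04, 3.03 and 2.98 at 48 h. The in-sphere arrays were above the outside arrays at both times, by 0.53 ± 0.15 at 24 h (adjusted p = 0.0192) and 0.68 ± 0.15 at 48 h (adjusted p = 0.00357). The 24 h call was lost without in-sphere replicate 1 (difference 0.50, adjusted p = 0.0568), in-sphere replicate 2 (0.42, adjusted p = 0.0806) or outside replicate 1 (0.39, adjusted p = 0.0881). It was also lost with the arrays shifted to one median (0.47, adjusted p = 0.0925), and the adjusted p ran from 8.02e-04 to 0.0925 over all alternatives.

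Mapt, which encodes the microtubule-binding protein tau, gave 3.08, 2.91 and 2.81 in spheres against 3.10, 2.96 and 3.16 outside at 24 h, and 2.86, 3.29 and 2.86 against 3.04, 2.95 and 2.83 at 48 h. These values exceeded 2.77 on all 12 arrays but straddled the receptor-gene level in every group and the groups overlapped (differences -0.14 ± 0.14 and 0.067 ± 0.14, adjusted p = 0.526 and 0.742). The neuron-specific tubulin Tubb3 and the neurofilament genes Nefl and Nefm exceeded 2.77 on 0 of 12 arrays, with highest values of 2.71, 2.64 and 2.11, and were not tested. Prph, an intermediate filament of peripheral and sympathetic neurons, reached 3.00 at most and differed by 0.10 ± 0.14 and 0.21 ± 0.14 (adjusted p = 0.659 and 0.292).

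Elavl4, a neuronal RNA-binding protein, was called at 48 h at values close to background. Its values were 2.71, 2.74 and 2.73 in spheres against 2.62, 2.56 and 2.54 outside at 24 h, and 3.08, 3.01 and 3.00 against 2.20, 2.43 and 2.49 at 48 h. The 3 in-sphere arrays at 48 h were the only ones above 2.77, and 1 of them exceeded the receptor-gene level. The gene was tested only because of this group, and the outside arrays at 48 h exceeded 2.77 on 0 of 3, so the fitted difference of 0.66 ± 0.11 (adjusted p = 4.46e-04) has a measured part of at least 0.26 against that level. At 24 h the difference was 0.15 ± 0.11 (adjusted p = 0.325). Of the other Elavl4 probe sets 1 exceeded 2.77 on 1 array and 1 on 0, and neither was tested. Their in-sphere means at 48 h were above the outside means by 0.35 and 0.17. The related gene Elavl3 gave 2.65, 3.03 and 3.12 in spheres against 2.85, 3.23 and 2.59 outside at 24 h, and 2.90, 3.12 and 2.45 against 3.54, 2.84 and 3.03 at 48 h. Its groups overlapped, with differences of 0.045 ± 0.23 and -0.31 ± 0.23 (adjusted p = 0.917 and 0.319).

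Nes and Elavl4 were the called members with a sequence in the RefSeq promoter table of the GRCm38.p6 build, which matched 24 of the 33 members by symbol and had no entry for Gap43, Nrn1, Ncam1, Ret, Stmn2, Mapt, Nefl, Nefm and Snap25. The 250 bases before the annotated start are shown 5′ to 3′ for these genes, since they are the regulatory sequences at hand for members that rose. The window of Nes is chr3:87970843-87971092 on the plus strand, and that of the first of 4 Elavl4 starts is chr4:110351912-110352161 on the minus strand. Capitals mark ACGTG, the core of hypoxia response elements, on either strand.
Nes: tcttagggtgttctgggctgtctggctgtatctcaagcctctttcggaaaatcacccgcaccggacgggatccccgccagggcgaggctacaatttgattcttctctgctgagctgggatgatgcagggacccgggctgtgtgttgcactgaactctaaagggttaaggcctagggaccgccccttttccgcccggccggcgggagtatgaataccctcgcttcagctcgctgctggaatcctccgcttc
Elavl4: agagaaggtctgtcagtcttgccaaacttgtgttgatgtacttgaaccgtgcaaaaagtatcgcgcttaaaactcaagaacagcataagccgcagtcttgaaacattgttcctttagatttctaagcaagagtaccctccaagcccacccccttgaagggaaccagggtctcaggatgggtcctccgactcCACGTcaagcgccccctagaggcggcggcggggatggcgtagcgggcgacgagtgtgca
ACGTG or its reverse complement CACGT occurred once in the Elavl4 window, with its first base 59 bases before the start, and not in that of Nes. The E-box CACGTG, which contains ACGTG, occurred in neither. The windows of Elavl4 starts 2, 3 and 4, not shown, held ACGTG 0 times. Over the first windows of the 24 members ACGTG was found in 3 (Hand2, Isl1 and Elavl4) and CACGTG in 0, against 16.6% and 6.02% of all 32851 windows of that length. A match of letters is a description of the sequence only.

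The transcription factors of the list did not pass the test, and several were at background. Hand2, Gata3 and Isl1 specify sympathetic neurons, and none exceeded the receptor-gene level on any array. Isl1 values were 2.91, 2.68 and 2.95 in spheres against 2.80, 2.79 and 2.88 outside at 24 h, and 2.74, 2.67 and 2.61 against 2.72, 2.74 and 2.69 at 48 h. It exceeded 2.77 on all 3 arrays only outside at 24 h, and the differences were 0.025 ± 0.11 and -0.038 ± 0.11 (adjusted p = 0.896 and 0.811). Hand2 ran from 2.35 to 2.95 over the 12 arrays. Gata3 ran from 2.23 to 2.66 and was not tested.

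Mycn, the oncogene amplified in high-risk neuroblastoma, gave 2.85, 3.33 and 3.29 in spheres against 3.20, 3.31 and 3.23 outside at 24 h, and 3.34, 3.31 and 4.30 against 2.67, 3.26 and 3.11 at 48 h. The highest value was that of in-sphere replicate 3 at 48 h, the array with the lowest median, and the other 11 values ran from 2.67 to 3.34. The difference was -0.089 ± 0.25 at 24 h (adjusted p = 0.837) and 0.64 ± 0.25 at 48 h (adjusted p = 0.0611, from 0.0327 to 0.228 over the alternatives). With the replicate block the 48 h difference passed (adjusted p = 0.0327), and it also passed without in-sphere replicate 1 or 2 (adjusted p = 0.0415 and 0.0353). Without in-sphere replicate 3 at 48 h it was 0.31 (adjusted p = 0.228). The 2 other Mycn probe sets lay at or below 2.82 on all arrays.

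Gata2, a factor of sympathetic neurons and of blood progenitors and mast cells, gave 3.32, 2.75 and 3.13 in spheres against 3.29, 3.59 and 4.0 outside at 24 h, and 3.15, 3.38 and 2.86 against 3.19, 3.67 and 3.82 at 48 h. Outside arrays carried most of the higher values but the groups overlapped, and the differences were -0.56 ± 0.23 at 24 h (adjusted p = 0.0862) and -0.43 ± 0.23 at 48 h (adjusted p = 0.157). The 24 h difference passed in 5 of 21 alternatives, among them both that rescaled the arrays (adjusted p = 0.0467 and 0.0370), and its adjusted p ran from 0.0156 to 0.299.

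Sox11, a factor of immature neurons, was read from a probe set whose probes can match several transcripts, and gave 3.91, 3.58 and 3.57 in spheres against 3.04, 3.53 and 3.29 outside at 24 h, and 3.38, 3.95 and 3.63 against 3.41, 3.39 and 3.08 at 48 h. In-sphere arrays were above outside arrays at 24 h without overlap, by 0.40 ± 0.18, and the difference did not pass (adjusted p = 0.119, at 48 h 0.36 ± 0.18 and 0.140). A dimmer Sox11 probe set with larger variance gave 4.69, 3.63 and 3.10 in spheres and 2.65, 2.52 and 2.83 outside at 24 h. At 48 h that probe set gave 3.71, 3.57 and 3.09 in spheres and 3.02, 2.61 and 2.79 outside. Read from it, Sox11 passed at 24 h with a difference of 1.14 (adjusted p = 0.0156) and did not at 48 h (0.65, adjusted p = 0.125). In the fit over all probe sets 2 of 4 tested Sox11 probe sets passed at 24 h and 1 at 48 h (limma adjusted p = 0.0416, a difference of 0.41), so the probe sets disagree on the call. The probe set called at 48 h was also called at 24 h (limma adjusted p = 0.00803). It exceeded 2.77 on 3 of 12 arrays, all in-sphere, and passed the filter only through them. At 48 h it gave 2.88, 2.59 and 2.42 in spheres and 2.32, 2.21 and 2.12 outside, of which 1 value lay above 2.77. With array weights the kept probe set passed at 48 h (0.56, adjusted p = 0.0125), and with probe sets averaged Sox11 passed at 24 h (0.40, adjusted p = 0.0421). Sox2, a factor of neural stem cells, exceeded 2.77 on 2 of 12 arrays, both in-sphere (3.09 on replicate 1 at 24 h and 3.08 on replicate 2 at 48 h), and was not tested.

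Of the enzymes of catecholamine synthesis, which define the adrenergic cell, Th and Ddc were near background in every group. Dbh exceeded the receptor-gene level on 10 of 12 arrays. No difference of these enzymes passed the test. Th, tyrosine hydroxylase, is the rate-limiting step. Its values were 3.07, 2.78 and 3.23 in spheres against 3.05, 3.01 and 3.15 outside at 24 h, and 2.81, 2.74 and 2.62 against 2.82, 2.77 and 3.04 at 48 h. Outside arrays carried values as high as in-sphere arrays, with differences of -0.047 ± 0.13 and -0.15 ± 0.13 (adjusted p = 0.841 and 0.394).

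Dbh, dopamine beta-hydroxylase, was read from a probe set of the kind whose probes can also match other transcripts. Its values were 3.13, 3.17 and 3.02 in spheres against 3.36, 3.54 and 3.51 outside at 24 h, and 3.33, 3.25 and 2.89 against 3.73, 3.03 and 3.34 at 48 h. At 24 h all 3 in-sphere arrays were below the outside arrays, a difference of -0.36 ± 0.17 (adjusted p = 0.139), and at 48 h the groups overlapped (-0.21 ± 0.17, adjusted p = 0.374). The 2 other Dbh probe sets averaged 2.80 each over the 12 arrays. Ddc, aromatic amino acid decarboxylase, exceeded 2.77 on 1 array, outside at 24 h (2.83), and was not tested.

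The granule members split between chromogranins at background and Npy well above it. Chga and Chgb encode chromogranins A and B, the core proteins of dense-core granules. Chga ran from 2.39 to 2.76 and was not tested, and Chgb ran from 2.45 to 2.94 with differences of -0.018 ± 0.15 and -0.060 ± 0.15 (adjusted p = 0.950 and 0.784).

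Npy encodes neuropeptide Y, a transmitter of sympathetic neurons that rodent megakaryocytes also make. Its values were 8.74, 8.07 and 8.25 in spheres against 8.71, 7.13 and 7.79 outside at 24 h, and 8.20, 7.61 and 7.61 against 9.33, 8.19 and 8.75 at 48 h. Npy was thus high outside the spheres too, in both sets of cultures. The difference was 0.48 ± 0.37 at 24 h (adjusted p = 0.388) and -0.95 ± 0.37 at 48 h (adjusted p = 0.0646), and groups overlapped at both times. Within replicate numbers the in-sphere array was the higher at 24 h and the lower at 48 h in 3 of 3 pairs. With the replicate block the 48 h difference passed (adjusted p = 0.00188, from 0.00188 to 0.234 over the alternatives). From the earlier to the later time the contrast itself changed by -1.43 ± 0.53, with an adjusted p of 0.309 and of 0.0450 with the block.

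The receptor tyrosine kinases Ret, which binds growth factors of the glial cell line-derived family, and Alk, which is mutated in a part of neuroblastomas, were at background. Ret ran from 2.29 to 2.78 and Alk from 2.25 to 2.77, and neither was tested. Among synaptic vesicle members, Snap25, a membrane fusion protein, ran from 2.05 to 2.69 and was not tested. Syp, synaptophysin, was read like Dbh from a probe set that can match other transcripts, while its other probe set averaged 2.54 and exceeded 2.77 on 1 of 12 arrays. The first gave 3.30, 2.95 and 3.24 in spheres against 2.97, 3.08 and 3.08 outside at 24 h, and 2.92, 3.24 and 3.19 against 3.11, 2.92 and 3.25 at 48 h. These lay at the receptor-gene level in all groups and overlapped (differences 0.12 ± 0.14 and 0.019 ± 0.14, adjusted p = 0.591 and 0.932).

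Uchl1, a ubiquitin hydrolase abundant in neurons, gave 3.40, 3.75 and 3.31 in spheres against 3.09, 3.73 and 2.67 outside at 24 h, and 2.91, 3.07 and 2.96 against 2.94, 2.68 and 2.40 at 48 h. In-sphere arrays exceeded the receptor-gene level on all 3 arrays at 24 h and on 1 of 3 at 48 h, and the groups overlapped. The differences were 0.33 ± 0.23 and 0.31 ± 0.23 (adjusted p = 0.340 and 0.323). Without outside replicate 2 at 24 h, which carried 3.73, the 24 h difference passed at 0.61 (adjusted p = 0.0409). Rtn1, a reticulon of neuroendocrine cells, ran from 2.43 to 2.99 and differed by -0.039 ± 0.17 and -0.10 ± 0.17 (adjusted p = 0.900 and 0.673).

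**Figure D3:**
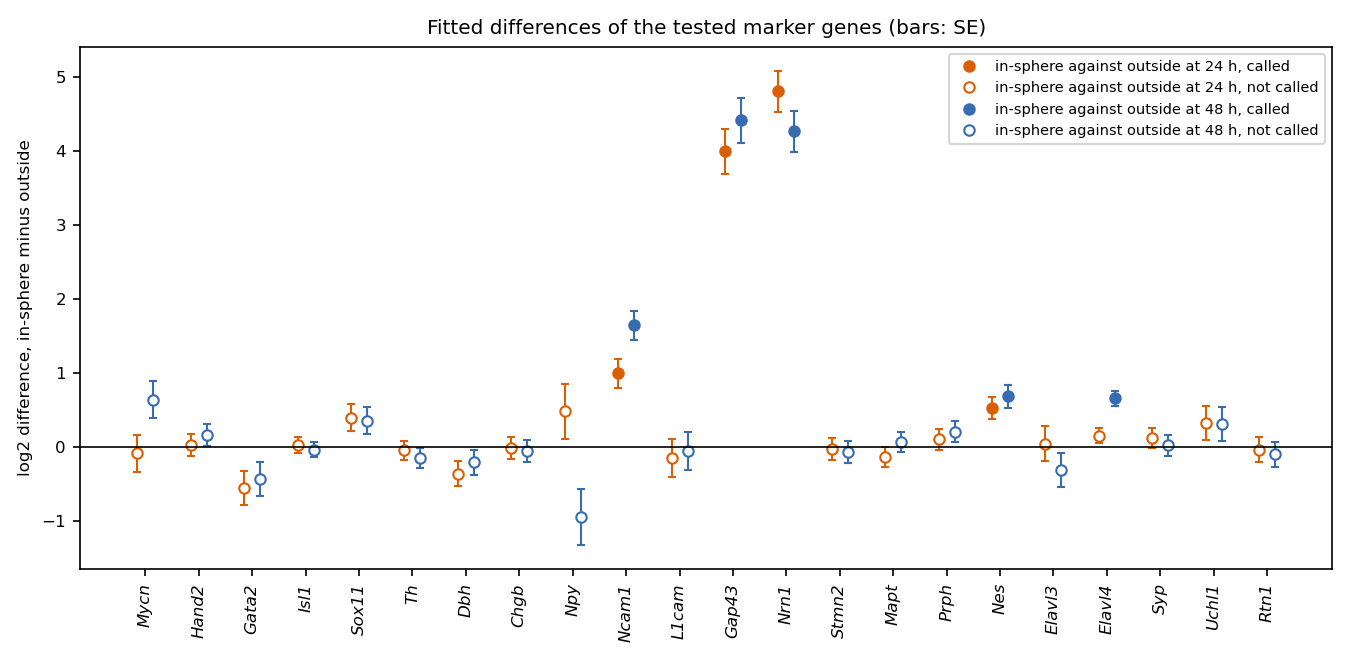
Fitted log2 differences, in-sphere minus outside, of the 22 tested marker genes at 24 h (orange) and 48 h (blue), with standard errors; filled points were called at an adjusted p under 0.05. Gap43 and Nrn1 lie near 4 or above at both times, Ncam1 at 0.99 and 1.64, and 18 members at 24 h and 17 at 48 h were not called.

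Counted over the list, 22 members passed the filter on low values and 10 did not. Limma called 4 higher and 0 lower at 24 h (18.2% of those tested were higher, against 15.8% of all genes, with 29.4% called in either direction). Before adjustment 5 were higher and 1 lower at p under 0.05. At 48 h it called 5 higher and 0 lower (22.7%, against 15.2% of all genes, with 37.5% called in either direction), and before adjustment 6 and 1. The 48 h count includes Elavl4, which passed the filter only through the group in which it was called higher, and without it 4 of 21 were called. A share near that of all genes is not a result about the list. The median difference was 0.035 at 24 h and 0.043 at 48 h, against -0.0068 and -0.10 over all tested genes. In-sphere and outside arrays did not overlap for 6 members above and 1 below at 24 h (22% and 21.5% of all genes) and for 7 above and 0 below at 48 h (20.7% and 31%).

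In the model without replicate block or array weights no member was called between the times. From 24 h to 48 h in spheres limma called 0 of 22 members and 0 of 12488 genes. Without adjustment 1 member was higher and 1 lower at p under 0.05. Outside it called 0 members against 42 genes (0.336%), and 1 and 1 without adjustment. With the replicate block Npy was called higher at 48 h outside (0.88, adjusted p = 0.0451), among 158 genes called. For the difference of the 48 h and 24 h contrasts it called 0 members and 0 genes. At an unadjusted p under 0.05 there were 2 members higher and 1 lower. With the block 1 member, Npy, and 65 genes were called (adjusted p = 0.0450 for Npy).

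In-sphere replicate 1 at 24 h, picked out after the values were seen, carried the highest of the 6 in-sphere values of Nrn1, Gap43 and Ncam1, 3 of the 5 called members, and of Map1b, Thy1 and Twist1, genes of neurites and mesenchyme. Of the other called members it carried the lowest in-sphere value of Elavl4 (2.71) and a Nes value (3.50) below 4 of the other 5. The same array carried the lowest in-sphere values of the leukocyte gene Ptprc (10.68), and of the macrophage genes Adgre1 (10.50), Csf1r (9.01) and Itgam (8.22). Without it the 24 h differences were 3.63 for Gap43, 4.43 for Nrn1 and 0.77 for Ncam1, each still called. On the other 5 in-sphere arrays the lowest values were 6.43 for Gap43, 8.02 for Nrn1 and 5.92 for Ncam1, all above every outside array. In-sphere replicate 1 at 24 h also had 192 genes above all other arrays by more than 0.5 and 94 below them by as much. On in-sphere replicate 3 at 48 h genes of both kinds were high together. There Adgre1 ranked 1 of the 6 in-sphere arrays, and Gap43, Map1b, Twist1, Ptprc and Csf1r ranked 2. Itgam ranked 3, Nrn1 and Thy1 ranked 4, and Ncam1 ranked 6. The part of cells other than macrophages in these values was not tested.

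**Figure D4:**
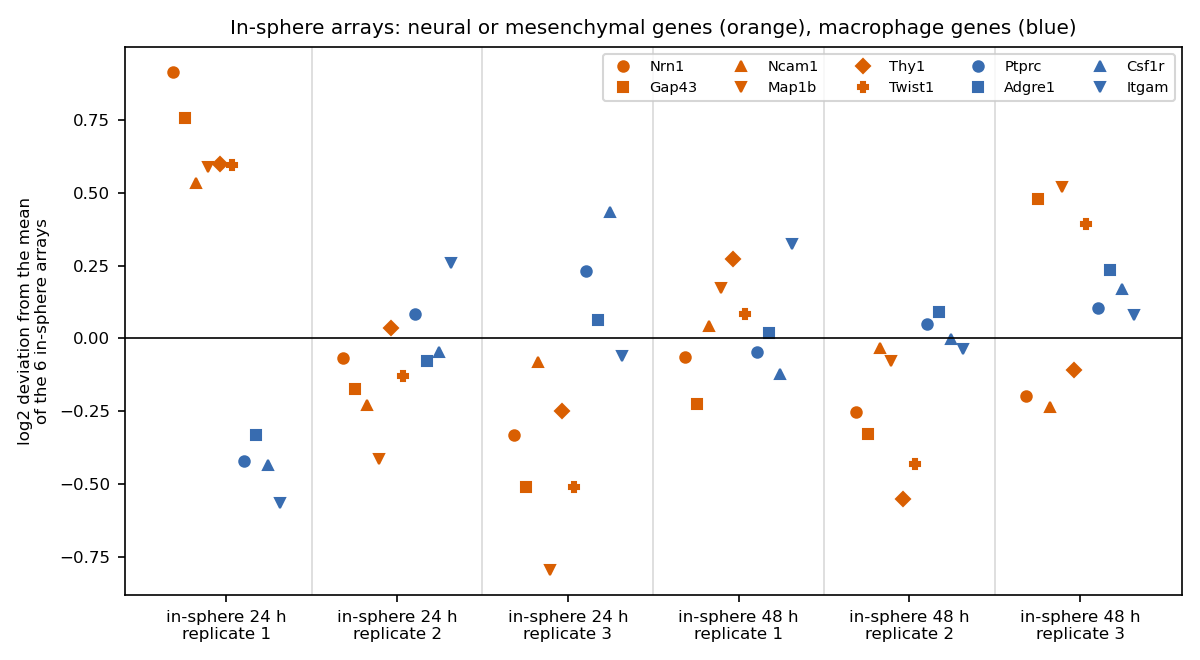
Log2 deviation of 6 neural or mesenchymal genes (orange) and 4 macrophage or leukocyte genes (blue) from their own mean over the 6 in-sphere arrays, 1 column per array. On replicate 1 at 24 h all 6 orange genes are at their highest and all 4 blue genes at their lowest, and the other arrays show no such split of all 10 genes. On replicate 3 at 48 h some genes of each colour lie above their mean together. The orange genes were picked from called genes, and the blue genes are 4 of 17 macrophage identity genes.

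Other genes of the same lineage were described in the same way. Of 29 other sympathoadrenal and neuroblastoma genes 23 had a probe set and 14 were tested. Of these 2 were higher and 1 lower at 24 h (median -0.11) and 2 and 2 at 48 h (median -0.087), where 29.4% and 37.5% of all genes were called in either direction. The defining factor Phox2a gave 2.94, 2.88 and 2.78 in spheres against 2.94, 2.87 and 3.00 outside at 24 h, and 2.79, 3.04 and 3.05 against 3.09, 2.83 and 3.00 at 48 h, with differences of -0.073 ± 0.12 and -0.014 ± 0.12 (adjusted p = 0.705 and 0.941). Gch1, which makes the cofactor of tyrosine hydroxylase and also serves nitric oxide synthesis in macrophages, was higher (0.65 ± 0.16 and 0.54 ± 0.16), as was the polyamine enzyme Odc1 (0.63 ± 0.20 and 0.57 ± 0.20). The surface protein Cd24a was lower (-2.29 ± 0.25 and -2.90 ± 0.25), and the monoamine transporter Slc18a1 was lower at 48 h (-0.62 ± 0.22).

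Of 44 other neuronal genes 41 had a probe set and 29 were tested. Of these 6 were higher and 0 lower at 24 h (median 0.098), against 15.8% and 13.6% of all genes. At 48 h 4 were higher and 2 lower (median 0.0093), against 15.2% and 22.3% of all genes. A count near these shares is not a result about the list. The microtubule protein Map1b rose by 2.46 ± 0.31 and 2.90 ± 0.31 and the surface protein Thy1 by 2.36 ± 0.23 and 2.04 ± 0.23. Map1b values were 6.45, 5.45 and 5.07 in spheres against 3.20, 3.59 and 2.82 outside at 24 h, and 6.04, 5.79 and 6.39 against 3.07, 3.00 and 3.43 at 48 h, without overlap. The ankyrin Ank2 (0.94 ± 0.15, at least 0.62 since 0 of 3 outside arrays exceeded 2.77, and 0.49 ± 0.15) and the growth cone protein Basp1 (0.76 ± 0.11 and 0.32 ± 0.11) rose less. The vesicle genes Vamp2 (-0.85 ± 0.14) and Syn1 (-0.82 ± 0.24) were lower at 48 h.

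Genes of other lists were called in both directions beside the raised members. Over all tested genes 15.8% were higher and 13.6% lower at 24 h, and 15.2% and 22.3% at 48 h. The counts of each list below stand against these shares. Of 12 glial and neural crest genes with a probe set 9 were tested, and 3 were higher and 1 lower at both times (median -0.069 and -0.11). Those higher were the mesenchymal transition factors Twist1 (1.87 ± 0.26 and 1.65 ± 0.26) and Snai2 (1.31 ± 0.17 and 0.92 ± 0.17) and the crest and cartilage factor Sox9 (1.27 ± 0.29 and 1.11 ± 0.29), and Fabp7 was lower (-0.75 ± 0.26 and -1.74 ± 0.26). Twist1 outside at 24 h exceeded 2.77 on 0 of 3 arrays, so that its 24 h difference is at least 1.69.

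Of 13 tested fibroblast and mesenchymal markers 7 were higher and 3 lower at 24 h (median 1.25), and 8 and 3 at 48 h (median 1.24). The mean log2 value over the list ran from 5.83 to 6.64 over the in-sphere arrays and 5.13 to 5.66 outside at 24 h, and from 6.33 to 6.41 and 5.10 to 5.94 at 48 h. The collagen Col3a1 (2.64 and 3.28), the crosslinking enzyme Loxl1 (2.99 and 2.92), the proteoglycan Dcn (2.60 and 2.98) and the factor Prrx1 (1.94 and 2.31) were higher. Mgp (-2.03 and -2.33), Acta2 (-0.76 and -0.83) and the collagen Col1a1 (-0.60 and -1.23) were lower. On the outside arrays Col3a1, Dcn, Prrx1 and Loxl1 exceeded the receptor-gene level on all 6, so these genes were detected in both compartments. Their part in the differences of Gap43, Nrn1 and Ncam1 was not tested.

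Of 17 macrophage identity genes 1 was higher and 6 were lower at 24 h (median -0.35), and 2 and 7 at 48 h (median -0.34). Their mean log2 value ran from 9.82 to 10.26 in spheres and 10.33 to 10.38 outside at 24 h, and from 10.02 to 10.08 and 10.36 to 10.43 at 48 h. Itgam differed by 0.15 ± 0.25 and 0.56 ± 0.25 and Csf1r by -0.18 ± 0.21 and -0.32 ± 0.21, with no call at either time. Ptprc differed by -0.35 ± 0.16 and -0.29 ± 0.16, also without a call, and Adgre1, a surface receptor of macrophages, was lower at 24 h (-0.43 ± 0.13, at 48 h -0.34 ± 0.13 without a call). Cebpa (-1.47 and -2.31), Cd33 (-1.54 and -1.07) and Mertk (-0.91 and -1.25) were lower at both times and Cd68 (-0.75) at 48 h, and Cd14 (0.54 and 1.09) was higher at both and Fcgr1 (1.19) at 48 h.

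Of 10 granulocyte markers 0 were higher and 8 lower at both times (median -1.16 and -1.90), among them Ltf, Camp, Csf3r and Cxcr2 with differences from -1.85 to -2.17 at 24 h and from -2.31 to -3.09 at 48 h. Of 5 tested epithelial markers 3 were higher at 24 h and 1 at 48 h, led by the cadherin Cdh1 (2.12 ± 0.42, at least 2.02 since 0 of 3 outside arrays exceeded 2.77, and 2.35 ± 0.42), with the keratins Krt18 (0.84, at least 0.41) and Krt19 (0.62) at 24 h. Of 5 erythroid and megakaryocyte markers Hba-a1, Gp9 and Itga2b were lower and Pf4, also a monocyte product, was higher at both times. Of 5 endothelial markers Vwf was lower at both times and Emcn at 24 h, and of 5 lymphocyte and natural killer markers Ms4a1 was lower at 24 h. The natural killer markers Ncr1 and Klrb1c exceeded the receptor-gene level on 0 of 12 and 1 of 12 arrays.

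**Figure D5:**
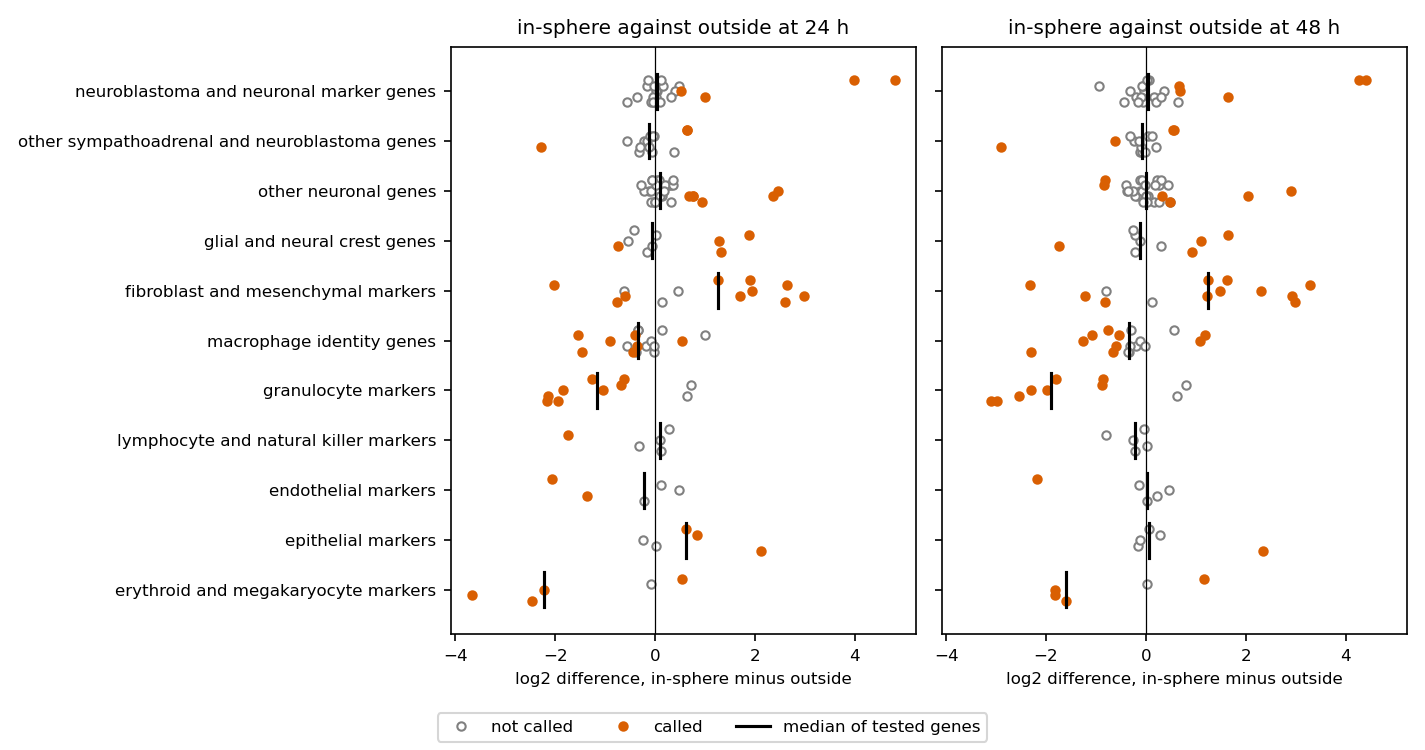
Fitted log2 differences, in-sphere minus outside, of the tested genes of each list at 24 h (left) and 48 h (right), 1 point per gene, filled where called, with a black bar at the median of the list. The marker genes of neuroblastoma and neurons have medians of 0.035 and 0.043 with Gap43 and Nrn1 far to the right, while the fibroblast and mesenchymal list has a median of 1.25 and 1.24.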

How the data were processed

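The labels assign 12 Affymetrix mouse arrays to 4 groups of 3. The authors deposited 1 log2 value per probe set and array. The submitters' processing notes name RMA and Affymetrix Expression Console 1.1. RMA corrects background and quantile-normalises the arrays together, which compresses differences of dim probe sets. The base of 2 is taken from the range of the values, and the scanner files were not used here.

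Of 45141 probe sets 28898 had 1 symbol, 551 several and 15692 none here. RefSeq identifiers matched 28689 of the first and changed 0 symbols. Of 17097 genes 12488 exceeded 2.77 in at least 3 arrays and were tested in a group-means model with limma 3.58.1 (R 4.3.3, 8 residual and 4.09 prior degrees of freedom), adjusted over all of them by Benjamini-Hochberg. The script was tested on simulated data. The members and lists were chosen with earlier results of these data known. All members are named, with up to 4 called genes per direction from each other list.

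Replicates are separate experiments per the series' design text, with both compartments taken from the same cultures, so equal numbers were read as pairs. The main model, which gave the calls, did not use this pairing. A fit with the replicate number as a block was an alternative. Deviations of same-numbered in-sphere and outside arrays correlated over genes by 0.0215, 0.120 and 0.0813 for the earlier time and by 0.117, 0.0417 and 0.112 for the later one, and those of outside arrays between times by 0.471, 0.473 and 0.419. Alternatives changed the probe set, filter, scaling, weights, variance prior, block and background level, and left out each array in turn. The number of arrays limits the precision.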

Additional observations from a re-analysis of the deposited data

Results flagged for a closer look

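Npy had opposite directions at the 2 times. In each of the 3 replicate numbers the in-sphere array was above the outside array at 24 h and below it at 48 h. For replicate 1 at 24 h the values were close (8.74 against 8.71), and the 24 h difference of 0.48 ± 0.37 was not called (limma adjusted p = 0.388). The change of the mean difference was -1.43 ± 0.53 on the log2 scale. Over all 12488 genes limma gave this change an adjusted p of 0.309, and of 0.0450 with the replicate block. Without single arrays the change ran from -1.85 to -1.05.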

How the results depend on the processing

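Gap43, Nrn1 and Ncam1 kept their direction and their call in all 21 alternatives at both times, with differences from 3.63 to 4.26, 4.43 to 5.06 and 0.45 to 1.15 at 24 h and from 4.16 to 4.58, 4.06 to 4.48 and 0.76 to 2.04 at 48 h, the lowest of Ncam1 with its probe sets averaged at both times. Shifting the arrays to one median raised every 48 h difference alike, that of Gap43 from 4.41 to 4.53. Nes kept its 48 h call in all 21. Gap43, Nrn1 and Nes have 1 probe set each, so alternatives that changed the probe set could not alter their differences. Leaving out an array of the other time could not alter a difference either. Elavl4 kept its 48 h call in all 19 in which it was tested, and was too dim to be tested with averaged probe sets or a higher filter level. Those 19 reuse the same arrays, of which only those in spheres at 48 h exceeded 2.77 for Elavl4. Its repeated call is therefore no independent support. Members called higher numbered 3 to 5 (without single arrays 3 to 5) against 4 at 24 h, and 4 to 6 (5 to 6) against 5 at 48 h. Members called lower numbered 1 instead of 0 at 24 h with averaged probe sets, arrays shifted to one median, repeated quantile normalization or array weights, which was Gata2, and 0 to 1 without single arrays. At 48 h they numbered 1 with no filter (Ddc, whose highest value at 48 h lay below 2.77, with Sox2 among those higher), and with array weights, limma trend or the replicate block (Npy), and 0 to 1 without single arrays. From 24 h to 48 h outside, the block gave 1 member higher (Npy) and array weights 1 lower (Ncam1), with 0 in all fits without single arrays, and for the change between times the block gave 1 lower (Npy). Beside these and the 48 h calls of Mycn and Npy the replicate block changed no call of a member.

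Counts over all genes moved in the time comparisons. In spheres 0 genes became 9 with averaged probe sets, 4 with no filter, 12 with arrays shifted to one median, 2 with repeated quantile normalization, 115 with array weights, 9 with limma trend and 15 with the replicate block (0 to 10 without single arrays). Outside, 42 became 120 with arrays shifted to one median, 124 with repeated quantile normalization, 286 with array weights, 88 with limma trend and 158 with the block (0 to 68 without single arrays). For the change between times 0 became 1 with averaged probe sets, 70 with arrays shifted to one median, 130 with array weights, 5 with limma trend and 65 with the block (0 to 2 without single arrays). Without single arrays the calls over all genes ran from 2930 to 4176 at 24 h and from 3811 to 4918 at 48 h.

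Members above background on all arrays of a group depended on the level. With the 50th percentile or the receptor-gene level they numbered 8 and 8 against 13 in spheres at 24 h, 7 and 7 against 13 outside at 24 h, 8 and 8 against 14 in spheres at 48 h, and 5 and 7 against 11 outside at 48 h. Averaged probe sets gave 8 outside at 24 h and 7 outside at 48 h, and the 30th percentile gave 17 outside at 48 h. Without single arrays the counts were 13 to 15, 13 to 15, 14 to 15 and 11 to 13. Signal near background, not the number of arrays alone, limits what can be said of the dim members.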
